A study of Mus musculus with 30 samples.

Results

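The immediate early response genes are a set of 10 genes, Fos, Fosb, Jun, Junb, Atf3, Egr1, Ier2, Dusp1, Zfp36 and Nr4a1, taken by symbol from a table of 24552 genes of MC38 tumours in mice. All 10 passed the low-count filter and were among the 15482 genes tested, and the lowest count of any of them in any library was 144. MC38 is a mouse colon carcinoma line, here grown under the skin of female C57BL/6J mice that were 10 weeks old when the cells were injected. Each mouse received 1 intravenous injection once its tumour was established. Mice of 2 groups received mXTX301 (0.39 mg/kg), 2 groups the unmasked molecule that served as positive control (0.03 mg/kg) and 2 groups vehicle, and polyadenylated RNA of the whole tumour, host cells included, was sequenced 4 or 7 days later. mXTX301 is a masked interleukin-12 surrogate for mice, and the unmasked molecule was given at the lower dose, so the drugs were compared at the doses used and not at a matched dose. Each of the 6 groups of treatment and day held 5 mice with 1 library each, 30 libraries in all. Total counts per library ran from 48303284 to 85198694. In 11 of the 30 libraries, spread over all 6 groups, the level of a list of skin epithelium genes lay more than 2 log2 units above the median library; these are called skin-rich, and the skin keratin gene Krt5 was at 0 counts in 12 of the 30. Values below are CPM, counts relative to library size after scaling by trimmed mean of M-values (TMM) factors, and a gene was called at an adjusted p under 0.05 in the edgeR quasi-likelihood test over all genes. Of genes that mark simple epithelium, Krt8 was at 0 counts in 13 libraries and Krt18 in 14, neither exceeded 0.464 CPM without TMM scaling, so both were absent or near 0 in tumours labelled as a colon carcinoma line. Epcam was at 0 in 2 libraries and reached 3.37 CPM, and Cdh1 was detected in all 30.

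Immediate early genes are transcribed within minutes of a signal at the cell surface, without new protein synthesis, because the factors that switch them on are already present and only need to be phosphorylated by kinases such as ERK, p38 and JNK. Fos and Fosb encode subunits of the transcription factor AP-1 that bind DNA only with a partner of the Jun family, here Jun and Junb. Atf3 encodes a stress-induced member of the ATF/CREB family, Egr1 a zinc finger factor and Nr4a1 an orphan nuclear receptor induced in T cells by antigen receptor signalling. Dusp1 encodes a phosphatase that switches off p38 and JNK, and Zfp36 encodes tristetraprolin, which binds AU-rich elements in messages such as that of tumour necrosis factor and speeds their decay. Ier2 encodes a small nuclear protein. The messages are short-lived, so their level in a tissue follows signals of the last hours and also the handling of the tissue. Tumours were homogenised in a bead mill, per the labels' protocols, and the time between death and homogenisation is not given in the sources used here.

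The promoters are shown for the 5 genes that were higher with both drugs at day 7 and for Jun, which was not called in any comparison. Each is the 250 bases before a start of transcription in RefSeq, build GRCm38.p6. For Fosb that start lies inside the gene, whose outer end is at chr7:19310118, so the window overlaps the gene. Capitals mark the letters TGACG on either strand, which are the core of the cyclic AMP response element, the letters TATAAA of a TATA box in Fos, and the CArG box, the site of serum response factor, in Zfp36.
Fos (chr12:85473640-85473889, plus strand): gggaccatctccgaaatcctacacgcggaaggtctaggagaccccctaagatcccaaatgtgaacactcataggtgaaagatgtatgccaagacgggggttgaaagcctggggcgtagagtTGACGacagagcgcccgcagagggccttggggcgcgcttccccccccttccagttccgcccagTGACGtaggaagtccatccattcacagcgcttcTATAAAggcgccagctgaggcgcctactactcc
Fosb (chr7:19310046-19310295, minus strand): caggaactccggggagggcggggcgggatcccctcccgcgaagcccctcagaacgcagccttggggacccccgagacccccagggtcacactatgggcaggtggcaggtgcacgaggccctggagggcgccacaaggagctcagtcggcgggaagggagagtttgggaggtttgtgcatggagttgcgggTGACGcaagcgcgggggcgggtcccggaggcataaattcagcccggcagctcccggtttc
Atf3 (chr1:191183334-191183583, minus strand): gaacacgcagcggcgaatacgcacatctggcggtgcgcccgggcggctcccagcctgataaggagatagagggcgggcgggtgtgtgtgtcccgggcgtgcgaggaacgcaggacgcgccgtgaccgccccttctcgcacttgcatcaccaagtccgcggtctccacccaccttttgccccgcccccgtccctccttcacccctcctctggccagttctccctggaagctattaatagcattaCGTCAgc
Dusp1 (chr17:26508473-26508722, minus strand): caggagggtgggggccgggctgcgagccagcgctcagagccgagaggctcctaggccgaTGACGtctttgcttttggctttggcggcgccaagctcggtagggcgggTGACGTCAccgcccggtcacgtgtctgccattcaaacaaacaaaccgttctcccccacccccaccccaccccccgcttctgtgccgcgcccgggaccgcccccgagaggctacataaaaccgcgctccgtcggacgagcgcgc
Zfp36 (chr7:28379229-28379478, minus strand): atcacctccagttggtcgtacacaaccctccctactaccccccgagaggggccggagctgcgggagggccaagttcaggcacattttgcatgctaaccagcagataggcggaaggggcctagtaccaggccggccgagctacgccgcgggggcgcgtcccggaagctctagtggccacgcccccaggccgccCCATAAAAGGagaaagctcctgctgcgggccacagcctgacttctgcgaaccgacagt
Jun (chr4:95052223-95052472, minus strand): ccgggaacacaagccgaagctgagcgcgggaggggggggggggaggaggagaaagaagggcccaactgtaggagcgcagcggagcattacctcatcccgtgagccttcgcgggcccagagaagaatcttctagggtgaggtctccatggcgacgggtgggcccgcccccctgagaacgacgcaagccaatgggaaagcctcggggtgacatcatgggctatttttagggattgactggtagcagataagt

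Promoters of 8 of the 10 genes were searched for motifs, and those of Ier2 and Egr1 were not. Shares of all promoters below refer to the 32851 promoters that were searched. The core TGACG, read on both strands, was present in 6 of these 8 promoters (Fos, Fosb, Junb, Atf3, Nr4a1 and Dusp1) and in 17.8% of 32851 promoters of the same length. The full element TGACGTCA, which contains that core, was present in 1, Dusp1, against 1.55% of all promoters. The CArG box was found in Zfp36 alone, against 1.47% of all. The letters TTCNNNGAA, the motif of STAT factors, were also found in Zfp36 alone, against 7.02% of all, and an NF-kB site in Fos and Fosb, against 7.25%. The AP-1 motif TGANTCA was in none of the 8, against 6.75% of all. TATAAA was found in Fos only, against 12.4% of all promoters. These are matches of letters in a window of 250 bases and do not show binding.

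Messages that tristetraprolin binds carry AU-rich stretches in the 3′ untranslated region, and the nonamer TTATTTATT is the DNA form of its best known site. The nonamer occurred in that region of 3 of the 10 genes, Fos, Dusp1 and Zfp36 itself, and of 7.66% of 21020 mouse genes in GENCODE M21. Dusp1 held 2 copies. The sites are shown because these 3 genes are also among those that were higher at day 7, with the nonamer in capitals and, for Dusp1, 1 of its copies.
Fos (chromosome 12, plus strand): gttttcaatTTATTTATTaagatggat
Dusp1 (chromosome 17, minus strand): agctggtccTTATTTATTtaacacccc
Zfp36 (chromosome 7, minus strand): atgacgactTTATTTATTgtattaaga

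At day 7, most of the immediate early genes were higher in tumours given mXTX301 than in vehicle tumours, led by Fosb, Atf3 and Fos, while Ier2 was lower. Of the 10 genes, 6 were called higher and 1 lower, against 25.7% of all tested genes called higher and 22.7% called lower, 48.4% in either direction. The median log2 fold change of the 10 genes was 0.73, against 0.02 over all genes. Many genes of the table thus moved with the drug at day 7, and the 7 calls are to be read against that share.

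**Figure D1:**
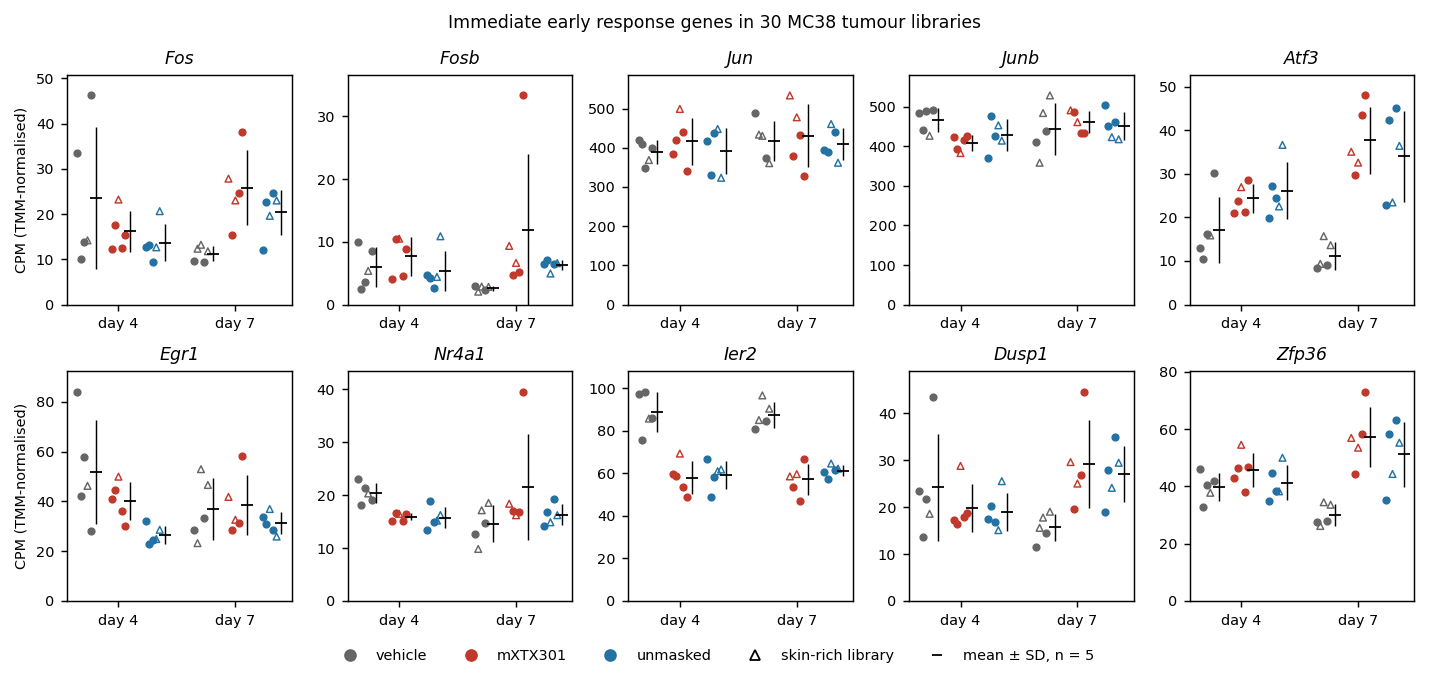
TMM-normalised CPM of the 10 genes in each library, by treatment and day. Each point is 1 library, open triangles are skin-rich libraries, and bars show the mean ± SD of 5. Atf3 and Zfp36 at day 7 lie above vehicle in every library of both drugs, and Ier2 lies below vehicle at both days.

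Atf3 was the member with the smallest p among the rises. Its day 7 CPM was 8.43, 9.33, 15.7, 9.02 and 13.6 in vehicle tumours and 35.1, 29.7, 32.6, 43.4 and 48.00 in mXTX301 tumours. The groups did not overlap, and there was a wide gap between the lowest mXTX301 library and the highest vehicle library. Means were 11.2 ± 3.24 and 37.8 ± 7.68 CPM, a log2 fold change of 1.75 (95% interval 1.24 to 2.26, adjusted p = 3.92e-06 by edgeR). Zfp36 read 27.6, 26.2, 34.5, 27.97 and 33.6 CPM in vehicle and 56.9, 44.5, 53.5, 58.4 and 73.01 CPM in mXTX301 tumours. Every treated library was above every vehicle library, with a log2 fold change of 0.93 (95% interval 0.64 to 1.22, adjusted p = 7.71e-06 by edgeR).

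Both Fos family members also rose. Fos measured 9.67, 12.3, 13.2, 9.35 and 11.8 CPM in vehicle and 27.8, 15.3, 23.02, 24.6 and 38.1 CPM in mXTX301 tumours, without overlap, and the log2 fold change was 1.19 (95% interval 0.53 to 1.85, adjusted p = 0.00351 by edgeR). Fosb measured 2.92, 2.05, 2.86, 2.34 and 2.82 CPM in vehicle and 9.34, 4.75, 6.63, 5.27 and 33.3 CPM in mXTX301 tumours. Those groups did not overlap either, but the library of replicate 5 stood far above the other 4. The log2 fold change of Fosb was 2.19 (95% interval 1.22 to 3.16, adjusted p = 0.000458 by edgeR), and without that library it was 1.31 with an adjusted p of 0.00558.

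Dusp1, the phosphatase, measured 11.6, 15.6, 17.8, 14.5 and 19.02 CPM in vehicle and 29.6, 19.7, 25.01, 26.9 and 44.6 CPM in mXTX301 tumours. The groups did not overlap, though the lowest treated library lay close to the highest vehicle library, and the log2 fold change was 0.89 (95% interval 0.39 to 1.40, adjusted p = 0.00419 by edgeR). Nr4a1 measured 12.7, 9.83, 17.1, 14.7 and 18.5 CPM in vehicle and 18.4, 16.9, 16.2, 16.7 and 39.5 CPM in mXTX301 tumours. Its groups overlapped, and replicate 5 of mXTX301 was again the high library. The call for Nr4a1, with a log2 fold change of 0.56 (95% interval 0.18 to 0.94, adjusted p = 0.0137 by edgeR), was lost without that library (log2 0.22, adjusted p = 0.176 by edgeR) and without vehicle replicate 2 (log2 0.43, adjusted p = 0.0561 by edgeR). It was also lost with only the compared groups in the fit (log2 0.55, adjusted p = 0.118 by edgeR). The groups stood apart without overlap in this direction for Atf3, Zfp36, Fos, Fosb and Dusp1, as for 16.5% of all tested genes.

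Ier2, at chr8:84661331-84662852 in GRCm38, moved the other way. Its day 7 CPM was 80.8, 85.1, 96.6, 84.6 and 90.4 in vehicle and 58.6, 53.8, 59.7, 46.98 and 66.8 in mXTX301 tumours, and the groups did not overlap. The log2 fold change was -0.61 (95% interval -0.80 to -0.43, adjusted p = 6.68e-06 by edgeR), that is 1.53-fold lower; 14.2% of all tested genes stood below vehicle without overlap. The Jun partners and Egr1 did not pass the test. Over all 30 libraries Jun ranged from 323 to 534 CPM and Junb from 358 to 529 CPM, with overlap of every pair of groups at one day. At day 7 Jun had a log2 fold change of 0.04 (95% interval -0.20 to 0.29, adjusted p = 0.792 by edgeR) and Junb of 0.05 (95% interval -0.11 to 0.22, adjusted p = 0.602 by edgeR). Egr1 had 0.06 (95% interval -0.42 to 0.55, adjusted p = 0.847 by edgeR). The intervals of Jun and Junb reach no farther than 0.29 on the log2 scale, while that of Egr1 is wider.

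With the unmasked control at day 7, Atf3, Zfp36, Fosb, Fos and Dusp1 were called higher and Ier2 lower. These 6 of 10 compare with 45% of all tested genes called in either direction, 23.2% higher and 21.8% lower. The median log2 fold change of the 10 genes was 0.47, against 0.01 over all genes. Both drugs were read against the same 5 vehicle libraries, so their results at one day are not independent.

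Atf3 measured 22.8, 42.3, 23.4, 45.01 and 36.4 CPM in the unmasked group, all above vehicle, with a log2 fold change of 1.60 (95% interval 1.09 to 2.11, adjusted p = 1.38e-05 by edgeR). Zfp36 measured 35.1, 58.2, 44.3, 63.1 and 55.2 CPM, again all above vehicle, with a log2 fold change of 0.77 (95% interval 0.48 to 1.06, adjusted p = 8.52e-05 by edgeR). Ier2 measured 60.6, 57.4, 64.6, 61.8 and 62.2 CPM, all below vehicle, with a log2 fold change of -0.51 (95% interval -0.70 to -0.32, adjusted p = 6.84e-05 by edgeR). For these 3 genes the day 7 call against vehicle held in every alternative fit and with any 1 library of the compared groups left out, for both drugs.

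Fosb measured 6.40, 7.14, 4.95, 6.49 and 6.60 CPM with the unmasked control, a tight group above every vehicle library (12.5% of all tested genes stood above without overlap and 12.8% below), and its log2 fold change was 1.28 (95% interval 0.34 to 2.22, adjusted p = 0.0252 by edgeR). Fos measured 11.97, 22.6, 19.6, 24.6 and 23.00 CPM and Dusp1 18.9, 27.99, 24.1, 34.99 and 29.4 CPM, and for both the lowest unmasked library lay within the range of vehicle. Their log2 fold changes were 0.85 (95% interval 0.20 to 1.51, adjusted p = 0.0316 by edgeR) for Fos and 0.79 (95% interval 0.28 to 1.29, adjusted p = 0.011 by edgeR) for Dusp1. The calls of these 3 genes were the weaker ones. Without the skin-rich libraries Fos, Fosb and Dusp1 were no longer called (adjusted p = 0.143, 0.192 and 0.0543 by edgeR), although their log2 fold changes were 1.04, 1.33 and 1.05. At day 7 that fit kept only replicates 1 and 4 of vehicle and replicates 1, 2 and 4 of the unmasked control. Fosb was also lost without vehicle replicate 2 (adjusted p = 0.0587 by edgeR) or replicate 4 (adjusted p = 0.0525 by edgeR). Fos was lost without vehicle replicate 1 or 4 or unmasked replicate 2, 4 or 5, with adjusted p values by edgeR of 0.0738, 0.0768, 0.0613, 0.0782 and 0.0694 in that order. The log2 fold change of Fos in these fits was 0.76 to 0.81, against 0.85 with all libraries. Nr4a1, Egr1, Jun and Junb were not called, with log2 fold changes of 0.16, -0.24, -0.03 and 0.02.

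**Figure D2:**
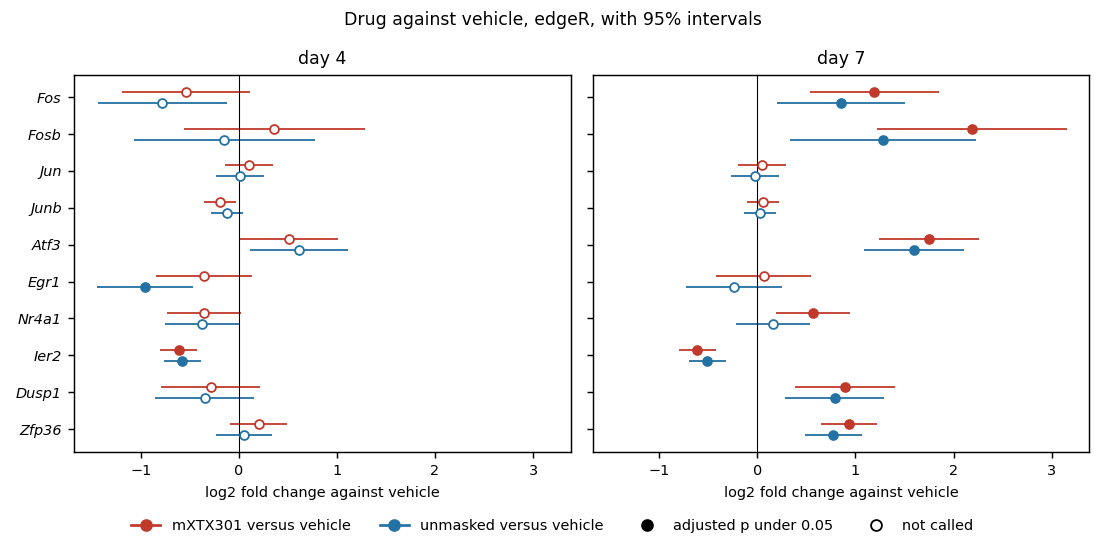
Log2 fold change of each gene against vehicle at day 4 and day 7 from the edgeR fit, with 95% intervals. Filled points passed an adjusted p of 0.05. Only Ier2 is filled and below 0 in all 4 comparisons, and Fos, Fosb, Atf3, Dusp1 and Zfp36 are filled and above 0 for both drugs at day 7.

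At day 4 the pattern differed, with Ier2 lower in both drug groups. In the main edgeR fit none of the 10 genes was called higher, though Atf3 was in some of the alternative fits. In mXTX301 tumours Ier2 was the 1 gene of 10 called, against 32.2% of all tested genes called in either direction and 16% called lower. In tumours given the unmasked control Ier2 and Egr1 were called lower, 2 of 10, against 22.4% of all genes in either direction and 10.8% called lower. The medians of the 10 log2 fold changes were -0.24 and -0.25, against 0.01 and -0.01 over all genes.

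Ier2 at day 4 measured 97.4, 75.7, 98.3, 85.8 and 86.1 CPM in vehicle tumours, 59.5, 58.7, 69.3, 53.7 and 48.9 CPM with mXTX301 and 66.5, 48.9, 58.4, 61.02 and 61.8 CPM with the unmasked control. No treated library reached the vehicle range, as for 9.33% of all tested genes with mXTX301 and 6.54% with the unmasked control. The log2 fold changes were -0.61 (95% interval -0.80 to -0.42, adjusted p = 2.79e-05 by edgeR) for mXTX301 and -0.58 (95% interval -0.77 to -0.39, adjusted p = 6.38e-05 by edgeR) for the unmasked control. Egr1 measured 84.1, 42.4, 57.8, 46.3 and 28.1 CPM in vehicle, 41.1, 44.5, 49.97, 36.1 and 30.2 CPM with mXTX301 and 32.1, 22.9, 24.5, 24.9 and 28.6 CPM with the unmasked control. Vehicle replicate 5 lay among the unmasked libraries, so those groups overlapped. The log2 fold change of Egr1 with the unmasked control was -0.96 (95% interval -1.45 to -0.47, adjusted p = 0.00497 by edgeR), and with mXTX301 it was -0.36 (95% interval -0.84 to 0.13, adjusted p = 0.265 by edgeR).

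Nr4a1 at day 4 measured 23.1, 18.1, 21.4, 20.3 and 19.1 CPM in vehicle and 15.2, 16.6, 16.5, 15.1 and 16.3 CPM with mXTX301. The groups did not overlap, but the gene was not called in the main fit: its log2 fold change was -0.35 (95% interval -0.73 to 0.02, adjusted p = 0.147 by edgeR). With only the compared groups in the fit, Nr4a1 was called lower with mXTX301 (adjusted p = 0.0125 by edgeR) and with the unmasked control (adjusted p = 0.0311 by edgeR). Nr4a1 was also called lower without the libraries numbered 5 of vehicle day 4 and mXTX301 day 7 (adjusted p = 0.0283 and 0.0233 by edgeR). Fos measured 33.6, 10.1, 13.8, 14.2 and 46.2 CPM in vehicle at day 4, where replicates 1 and 5 were high, 12.3, 17.5, 23.2, 12.6 and 15.3 CPM with mXTX301 and 12.6, 13.1, 9.48, 12.7 and 20.6 CPM with the unmasked control. Fos was not called at day 4, with log2 fold changes of -0.54 (95% interval -1.19 to 0.11, adjusted p = 0.205 by edgeR) for mXTX301 and -0.78 (95% interval -1.44 to -0.13, adjusted p = 0.0781 by edgeR) for the unmasked control. For the unmasked control Fos was called lower without vehicle replicate 2, 3 or 4 or unmasked replicate 5, and was at -0.38 without vehicle replicate 5. Atf3 measured 13.01, 10.5, 16.1, 15.9 and 30.2 CPM in vehicle, 21.1, 23.9, 26.9, 21.3 and 28.5 CPM with mXTX301 and 19.9, 27.3, 24.4, 22.5 and 36.7 CPM with the unmasked control. Vehicle replicate 5 lay above all 5 mXTX301 libraries and above 4 of the 5 unmasked libraries, while the other 4 vehicle libraries lay below every treated library. Without that vehicle library Atf3 was called higher with mXTX301 (log2 0.81, adjusted p = 0.00926 by edgeR) and with the unmasked control (log2 0.92, adjusted p = 0.0039 by edgeR). With a replicate block in the fit, Atf3 was called higher with mXTX301 (adjusted p = 0.0294 by edgeR) and with the unmasked control (adjusted p = 0.0192 by edgeR). For the unmasked control Atf3 was also called higher by DESeq2 (adjusted p = 0.0446) and by limma on the deposited log2 values (adjusted p = 0.0403). The same held with the adipocyte level in the fit (adjusted p = 0.0372 by edgeR). Without vehicle replicate 4 Junb was called lower with mXTX301 (log2 -0.24, adjusted p = 0.0356 by edgeR). Junb was also called lower with mXTX301 when only the compared groups were in the fit (log2 -0.19, adjusted p = 0.0471 by edgeR). In the main fit Dusp1, Zfp36, Fosb, Jun and Junb were not called at day 4 with either drug, nor was Nr4a1 with the unmasked control. Their log2 fold changes lay between -0.37 and 0.36. Atf3 was not called in that fit either, with log2 fold changes of 0.51 for mXTX301 and 0.61 for the unmasked control.

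Between the drugs no member was called at either day, and 0% of the 15482 tested genes were. At an unadjusted p under 0.05 there were 2092 genes at day 4 and 898 at day 7, and DESeq2 called 24 genes at day 4 and 13 at day 7, none of them a member. With only the compared groups in the fit 194 genes were called at day 4, and without the libraries numbered 5 of vehicle day 4 and mXTX301 day 7 it was 398, again with no member. At day 4 the difference for Egr1, mXTX301 minus unmasked, was 0.60 (95% interval 0.11 to 1.09, adjusted p = 0.302 by edgeR) on the log2 scale. At day 7 it was 0.91 (95% interval -0.02 to 1.84, adjusted p = 0.871 by edgeR) for Fosb and 0.40 (95% interval 0.03 to 0.78, adjusted p = 0.858 by edgeR) for Nr4a1, and without mXTX301 day 7 replicate 5 these differences were 0.045 and 0.071 (adjusted p = 1.0 for both by edgeR). For Atf3, Zfp36 and Ier2 the day 7 differences were 0.15, 0.16 and -0.10, with 95% intervals of -0.35 to 0.65, -0.13 to 0.45 and -0.29 to 0.09. The interval for Fosb is wide, and that for Ier2 is narrow. The doses of the drugs differed, so these are values side by side at the doses given.

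Within a treatment, no member was called between day 7 and day 4 in the main fit. Of all tested genes 0.0388%, 14.5% and 25.9% were called in vehicle, mXTX301 and unmasked tumours. In vehicle tumours 9 of the 10 log2 fold changes were negative and their median was -0.48, against 0.00 over all genes. Fos went from 23.6 ± 15.6 to 11.3 ± 1.69 CPM in vehicle, with a log2 fold change of -1.06 (95% interval -1.72 to -0.40, adjusted p = 0.0917 by edgeR). DESeq2 called Fos lower in vehicle (adjusted p = 0.0227). Zfp36 went from 39.8 ± 4.97 to 29.97 ± 3.78 CPM, with -0.41 (95% interval -0.70 to -0.12, adjusted p = 0.125 by edgeR). In mXTX301 tumours the median was 0.38 and in unmasked tumours 0.23, against 0.03 over all genes in both. Atf3 and Junb in mXTX301 tumours lay higher at day 7 than at day 4 without overlap, as for 5.67% of all tested genes. In the main fit neither was called. The log2 fold change was 0.63 for Atf3 (95% interval 0.13 to 1.13, adjusted p = 0.074 by edgeR). For Junb it was 0.18 (95% interval 0.01 to 0.34, adjusted p = 0.13 by edgeR). Atf3 was called higher with a replicate block (adjusted p = 0.0353 by edgeR), with only the compared groups (adjusted p = 0.0183 by edgeR) and by DESeq2 (adjusted p = 0.0467).

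The change of the drug effect from day 4 to day 7 was tested directly. For mXTX301, 5 of the 10 genes passed, all with a larger effect at day 7, against 1.95% of all tested genes in that direction and 4.99% in either. The changes on the log2 scale were 1.73 for Fos, 1.24 for Atf3, 1.18 for Dusp1, 0.92 for Nr4a1 and 0.73 for Zfp36, with adjusted p values by edgeR of 0.0306, 0.0389, 0.0471, 0.0419 and 0.0352. For the unmasked control, Fos (1.63, adjusted p = 0.0376 by edgeR) and Zfp36 (0.72, adjusted p = 0.0373 by edgeR) passed, against 2.95% of all genes in that direction and 5.15% in either. Each change includes the difference between the days in vehicle. On the log2 scale that difference was -1.06 for Fos, -0.61 for Atf3, -0.63 for Dusp1, -0.48 for Nr4a1 and -0.41 for Zfp36. In the main fit it was called for none of these genes.

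Many of these calls were lost when single libraries were left out, mostly with log2 changes near those given above. For the 5 genes with mXTX301, the log2 change in the fits that lost the call was 1.55 to 1.75 for Fos, 0.92 to 1.23 for Atf3, 0.85 to 1.23 for Dusp1, 0.58 to 0.99 for Nr4a1 and 0.63 to 0.73 for Zfp36, with adjusted p values by edgeR of 0.0517 to 0.115. The lowest value of Nr4a1 came without mXTX301 day 7 replicate 5. For the unmasked control it was 1.47 to 1.66 for Fos and 0.62 to 0.69 for Zfp36. For mXTX301 the count was 0 without vehicle day 7 replicate 1 or 4, mXTX301 day 4 replicate 1 or 4, or mXTX301 day 7 replicate 4 or 5. It was 1 without vehicle day 4 replicate 1 or 3, vehicle day 7 replicate 2 or mXTX301 day 4 replicate 2, and 3 without vehicle day 4 replicate 5 or mXTX301 day 4 replicate 5. For the unmasked control it was 0 without vehicle day 4 replicate 1, vehicle day 7 replicate 1, 2 or 4, unmasked day 4 replicate 1, 3 or 4, or unmasked day 7 replicate 2, 4 or 5, and 1 without vehicle day 4 replicate 3. It was 3 without vehicle day 4 replicate 2, vehicle day 7 replicate 5 or unmasked day 4 replicate 2 or 5, and 4 without vehicle day 7 replicate 3 or unmasked day 7 replicate 1. The called changes kept their sign in each of these fits. Under alternatives chosen after seeing the data, none of the 5 mXTX301 changes passed with the adipocyte level in the fit (adjusted p from 0.128 to 0.209 by edgeR) or without vehicle day 4 replicate 5 and mXTX301 day 7 replicate 5 together (adjusted p from 0.0651 to 0.175 by edgeR). For the unmasked control the counts under these were 0 and 5.

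Across the 30 libraries, after the group means were removed, a block of the genes varied together. Of the 45 pairs, 16 passed a permutation test within groups at an adjusted p under 0.05, all with a positive Pearson r, and 17 passed by Spearman rho. Pairs of genes outside the set were not tested, so there is no share of all pairs to set beside these counts. The 6 genes called higher at day 7 with mXTX301 gave 15 of the pairs, with r from 0.37 to 0.87, and 14 of these passed. Fos and Dusp1 had r = 0.87 and rho = 0.83 over 30 libraries (permutation p = 1e-05 for both, the smallest that 100000 permutations can give, adjusted p = 9e-05 for r). Atf3 and Dusp1 had r = 0.83 and rho = 0.78. Egr1 and Ier2, which were lower with the unmasked control at day 4, had r = 0.68 and rho = 0.77 with each other, and Egr1 and Nr4a1 had r = 0.59. Jun and Junb passed with none of the other genes, and the most negative pair was Jun and Nr4a1, with r = -0.48 and an adjusted permutation p of 0.071.

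**Figure D3:**
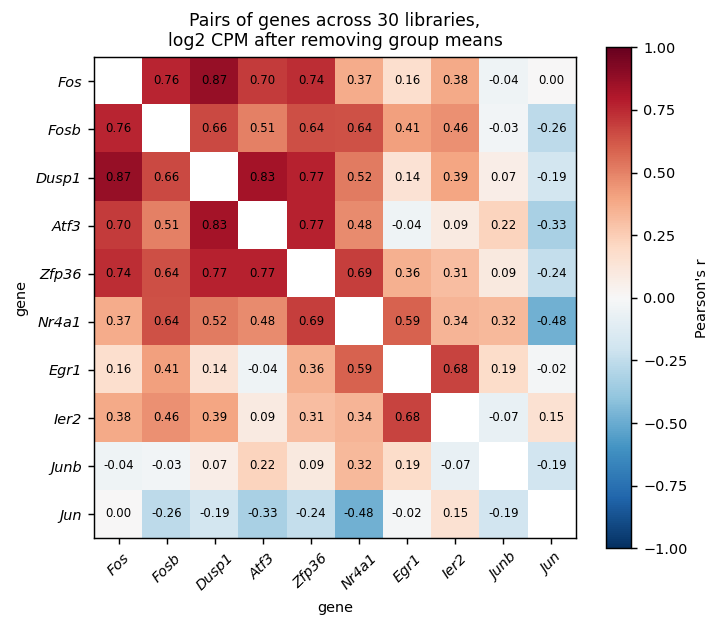
Pearson r of each pair of genes across 30 libraries, from log2 CPM with the group mean removed. Fos, Fosb, Dusp1, Atf3, Zfp36 and Nr4a1 form a block with r from 0.37 to 0.87, and Jun and Junb stand outside it.

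Without the 2 libraries farthest from the median of the first gene, r kept its sign for each of the 16 pairs and was at least 0.42. For Fos and Dusp1 it was 0.80 and for Atf3 and Dusp1 0.79. In the 19 libraries that are not skin-rich, 5 of the 45 pairs passed, all positive, and r was 0.88 for Fos and Dusp1 and 0.89 for Atf3 and Dusp1. Vehicle day 4 replicates 1 and 5, mXTX301 day 4 replicate 3, mXTX301 day 7 replicate 5 and unmasked day 4 replicate 5 had the highest mean deviation of the 10 genes from their group, from 0.29 to 0.53 on the log2 scale, and vehicle day 4 replicate 2 the lowest, at -0.42.

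The genes outside the set whose group-centred log2 CPM followed the mean of the 10 most closely were Btg2 (r = 0.80), Fabp4 (0.78), Acer2 (0.75), Rpp21 (0.75), Ephx2 (0.74), Mgll (0.74), Egfl7 (0.74) and Hp (0.73), over 30 libraries that share their depth and scaling. Btg2 encodes an antiproliferative protein and is itself an early response gene. Fabp4, a fatty acid binding protein, and Mgll, a lipase, are high in fat tissue, and Egfl7 is an endothelial gene. These r values describe the libraries and carry no test.

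Levels of some cell type marker lists differed between the groups, and within groups some of the genes followed them. T cell markers had a mean level of 0.33 log2 CPM in vehicle at day 7, 2.93 with mXTX301 and 3.33 with the unmasked control; 14 of 15 markers were called higher with each drug, 1 was called lower, and their summed CPM ran from 51.5 to 66.3 in vehicle, 134 to 275 with mXTX301 and 124 to 326 with the unmasked control. Macrophage markers were called higher in 12 of 12 with mXTX301 and 11 of 12 with the unmasked control at day 7, with summed CPM of 455 to 1241 in vehicle, 2033 to 4549.6 and 1363 to 4061. At day 7, 25.7% and 23.2% of all tested genes were called higher with mXTX301 and the unmasked control. Neutrophil markers were called higher in 5 and 8 of 11. Their mean level at day 7 was 0.94 log2 CPM in vehicle, 2.37 with mXTX301 and 2.92 with the unmasked control, and it did not overlap between vehicle and either drug, with ranges of 0.41 to 1.68, 1.92 to 2.95 and 2.17 to 3.58. Their summed CPM did overlap, from 190.3 to 332 in vehicle, 185 to 341 and 253 to 339, and Mmp9, with a median of 9093.5 counts, was the most abundant of the list. No T cell or macrophage marker was at 0 in any library. Thy1, with a median of 2394.5 counts, was the most abundant T cell marker and is also in the fibroblast list. In bulk tissue, more cells of a type and more RNA per cell cannot be told apart.

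Within groups, Zfp36 rose with the level of T cells, macrophages, neutrophils, endothelium and fibroblasts (edgeR slopes of 0.25, 0.32, 0.38, 0.48 and 0.39 log2 per log2 unit of the list level). Atf3 rose with macrophages (0.45) and neutrophils (0.64), Dusp1 with neutrophils (0.53) and endothelium (0.66), and Nr4a1 with endothelium (0.56) and fibroblasts (0.59). Fosb, Egr1 and Ier2 rose with adipocyte markers (0.36, 0.20 and 0.10). These counts of 1 of 10 for T cells, 2 for macrophages, 3 for neutrophils, 3 for endothelium, 2 for fibroblasts and 3 for adipocytes compare with 10.6%, 12.9%, 4.69%, 5.89%, 6.44% and 2.59% of all tested genes. The counts for T cells and macrophages lie near these shares. Fos, Jun and Junb passed with none of these lists. The slopes of Fos on macrophages (0.58, adjusted p = 0.0557 by edgeR) and T cells (0.53, adjusted p = 0.0565 by edgeR) were steeper than those of Zfp36. So was its slope on endothelium (0.69, adjusted p = 0.106 by edgeR). The standard errors of Fos were larger. No member followed the skin level, against 2.82% of all genes, or skeletal muscle, against 1.99%. Only the skin slope was repeated with libraries left out, so the other slopes may rest on single libraries. The part of these cell types in the drug results was not tested, apart from the fit with the adipocyte level given below.

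Endothelial markers were lower at day 4. Of 15 markers, 7 were called lower with mXTX301 and 12 with the unmasked control, against 16% and 10.8% of all tested genes. The summed CPM of the list ran from 187 to 261 in vehicle, 121 to 194 with mXTX301 and 113 to 143 with the unmasked control. At day 7 no endothelial marker was called lower with either drug. Ier2 was called lower with both drugs at both days, and Egr1 with the unmasked control at day 4 only. The slope of Ier2 on the endothelial level, 0.21, did not pass (adjusted p = 0.0701 by edgeR), and the part of endothelium in these results was not tested. Adipocyte markers at day 7 had summed CPM of 82.6 to 133 in vehicle, 123 to 345 with mXTX301 and 104 to 150.0 with the unmasked control. Pnpla2, with a median of 4777 counts, was the most abundant of that list, while Adipoq had a median of 25.5 counts. With the adipocyte level in the fit, 6 of the 7 calls of mXTX301 at day 7 remained, all but Nr4a1 (adjusted p = 0.0797 by edgeR).

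Related gene lists gave the setting. Their counts are to be read against the share of all tested genes called in either direction, which was 48.4% with mXTX301 and 45% with the unmasked control at day 7, and 32.2% and 22.4% at day 4. Of 20 other immediate early transcription factors, 7 were called higher and 3 lower with mXTX301 at day 7, and 7 and 1 with the unmasked control; at day 4 the counts were 1 and 2, and 1 and 4. At day 7 that is 50% and 40% of the list in either direction, near the share of all genes. Their median log2 fold change at day 7 was 0.28 and 0.20. Nfil3 (log2 0.66, adjusted p = 8.33e-05 by edgeR) and the Fos relative Fosl2 (0.46, adjusted p = 9.36e-05) rose with mXTX301 at day 7. Nr4a3, a relative of Nr4a1, rose with the unmasked control (1.99, adjusted p = 3.04e-05 by edgeR). Hes1, a target of Notch signalling, fell with both drugs at day 7 (-1.08 and -0.52). Egr2, a relative of Egr1, fell with the unmasked control at day 4 (-0.84, adjusted p = 0.0169 by edgeR).

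Of 25 other early effectors, 11 were called higher and 3 lower with mXTX301 at day 7 and 8 and 3 with the unmasked control, against 2 and 5, and 2 and 4, at day 4. The day 7 counts are 56% and 44% of the list in either direction, again near the share of all genes, and 44% and 32% higher against 25.7% and 23.2%. The kinase gene Pim1 rose in all 4 comparisons, by 0.72 and 1.60 with mXTX301 and by 0.69 and 1.41 with the unmasked control at day 4 and day 7. Ier5l, a relative of Ier2, fell with both drugs at day 7 (-0.88 and -0.82). Rhob, a small GTPase, fell with the unmasked control at day 4 (-0.80). Of 14 genes of feedback on the ERK pathway, 3 were higher and 3 lower with mXTX301 at day 7 and 4 and 2 with the unmasked control, 42.9% of the list with each drug and near the share of all genes. Dusp7, an ERK phosphatase, rose (0.51 and 0.72), while the ERK inhibitor Spry4 (-0.64 and -0.57) and the ETS factor Etv4 (-0.49 and -0.41) fell.

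**Figure D4:**
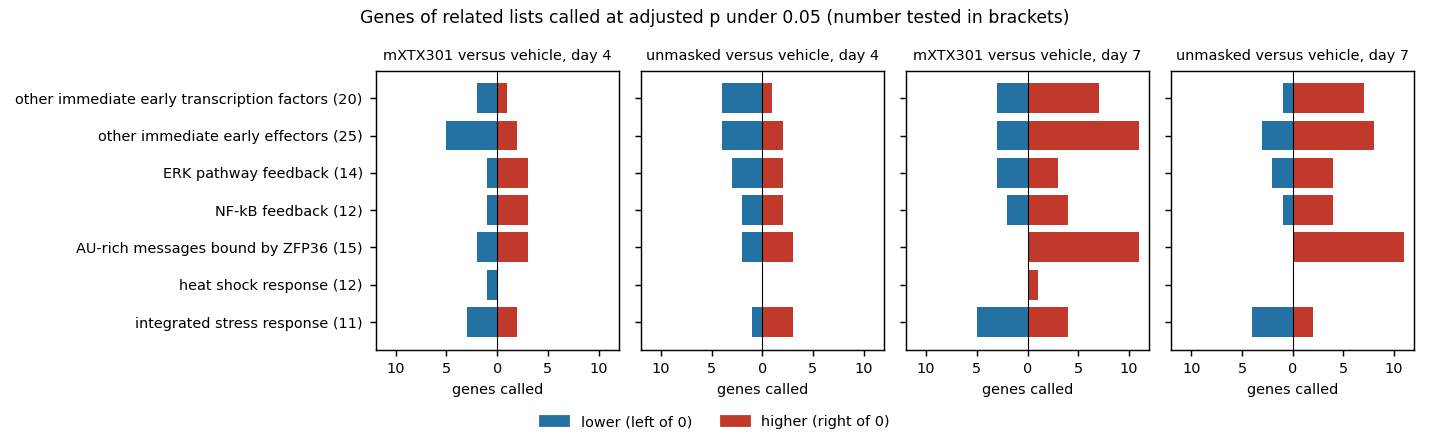
Number of genes of each related list called higher (right of 0) and lower (left of 0) in the 4 comparisons with vehicle. Of 15 AU-rich messages, 11 were higher with each drug at day 7, while heat shock genes had at most 1 call.

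Of 15 AU-rich messages that tristetraprolin binds, 11 were called higher and none lower with each drug at day 7, against 3 higher and 2 lower with each at day 4. The day 7 counts are 73.3% of the list, against 25.7% and 23.2% of all genes called higher, and the day 4 counts 33.3% in either direction. Ifng, the interferon-gamma gene, rose by 5.04 and 4.55 and Il1a by 3.80 and 3.96 on the log2 scale at day 7. Il23a fell with both drugs at day 4 (-0.89 and -0.97). Of 12 genes of feedback on NF-kB, 4 were higher and 2 lower with mXTX301 at day 7 and 4 and 1 with the unmasked control, 50% and 41.7% of the list and near the share of all genes. Tnfaip3, an inhibitor of NF-kB (0.76 and 1.01), and Icam1, an adhesion molecule (1.59 and 1.87), rose, and Nfkb2 fell (-0.36 and -0.32). Of 17 genes of serum response factor and MAP kinases, 2 were higher and 3 lower with mXTX301 at day 7 and 3 and 4 with the unmasked control, 29.4% and 41.2% of the list, at or below that share. Mapk9, a JNK gene, rose (0.22 and 0.10), and its relative Mapk8 fell (-0.38 and -0.34).

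Stress lists did not move as one. Of 12 heat shock genes, 1 was called higher with mXTX301 at day 7, Hspa8 (0.30, adjusted p = 0.00372 by edgeR), 1 was called lower at day 4, Hspe1 (-0.32, adjusted p = 0.0427 by edgeR), and none was called with the unmasked control, at most 8.33% of the list. Of 11 genes of the integrated stress response, of which Atf3 is a known target, 4 were higher and 5 lower with mXTX301 at day 7 and 2 and 4 with the unmasked control, 81.8% and 54.5% of the list. Slc7a11, a cystine transporter (1.60 and 1.59), and Cebpb, a transcription factor (0.87 and 0.79), rose. The serine synthesis gene Psat1 fell (-0.45 and -0.51).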

How the data were processed

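The data are polyadenylated RNA sequencing libraries of 30 tumours, 5 per treatment and day. The submitters' processing notes name STAR 2.7.10a and HTSeq 0.11.1, next to edgeR 3.34.0 under R 4.1.0, FastQC 0.11.9 and cutadapt, and the build mm10; whether counting used strand is not given in the sources used here. The authors deposited raw counts per gene, without normalization, for 24557 entries, of which 5 repeated symbols were dropped. They also deposited log2 CPM values for 14877 genes, which matched recomputed values of the 10 members within 0.00019 and served for 1 alternative.

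Counts were tested with edgeR 4.0.16 in R 4.3.3 (TMM scaling, filterByExpr, robust quasi-likelihood fit over 6 group means with 24 residual degrees of freedom), with Benjamini-Hochberg adjustment over 15482 genes and a threshold of 0.05. Intervals are 95%, and log2 CPM used a prior count of 2. The common biological coefficient of variation was 27.3%. On simulated data for mXTX301 against vehicle at day 7 with 15327 genes, 100 genes were changed 1.5-fold and 99 changed 2-fold. The test called 60 and 68 of these, with 0 in the wrong direction and 7 false calls. In the measured comparison 48.4% of all tested genes were called, a far larger share than was changed in the simulation. The adjusted p depends on that share, so the simulated counts do not give the power for the members.

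The members and gene lists were chosen with earlier results of these data known. All 10 members were reported in every comparison. From each list, up to 2 genes called in each direction with the smallest p were eligible to be named, and the 8 genes most like the member mean by Pearson r, predicted genes aside. Pairs were tested with 100000 permutations within groups over 30 libraries, adjusted over 45 pairs. Alternatives used DESeq2 1.42.0 and limma 3.58.1, other scaling and filters, covariates, a replicate block and left-out libraries. No 2 libraries were identical. Nothing beyond their labels says how the replicates were handled, so p-values measure the spread between these mice and libraries. The samples were not treated as paired by replicate number, and the sources used here do not say how the numbers were assigned.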

Additional observations from a re-analysis of the deposited data

Results flagged for a closer look

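Within groups of 5 libraries, 2 of the 60 sets of 1 gene in 1 group held a library far from the others by Dixon's test on log2 CPM; chance flags about 1 in 20 such sets. Dusp1 measured 28.8 CPM in mXTX301 day 4 replicate 3, a skin-rich library, and the nearest of the other 4 was 18.8 CPM. Nr4a1 measured 39.5 CPM in mXTX301 day 7 replicate 5, and the nearest was 18.4 CPM. On CPM itself 5 sets passed, these 2 and 3 more. They were Fosb in mXTX301 day 7 replicate 5 (33.3 CPM, nearest 9.34), Fosb in unmasked day 4 replicate 5 (10.9 CPM, nearest 4.70) and Atf3 in vehicle day 4 replicate 5 (30.2 CPM, nearest 16.1).

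In the main fit, the effect of a drug against vehicle differed between day 4 and day 7 for some of the genes, by the test of the difference itself. For mXTX301 the change was 1.73 for Fos, 1.24 for Atf3, 1.18 for Dusp1, 0.73 for Zfp36 and 0.92 for Nr4a1 on the log2 scale. For the unmasked control it was 1.63 for Fos and 0.72 for Zfp36. The same vehicle libraries enter both sets. With 1 library left out, the number of genes called ranged from 0 to 5 for mXTX301 and from 0 to 4 for the unmasked control. Each change also includes the difference between the days in vehicle.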

How the results depend on the processing

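Over single genes, 2146 of 2400 alternative values kept their direction and side of the threshold, 114 lost a call, 45 gained one, 95 changed sign where no call was made, and none reversed a call. With 1 library left out, the number of the 10 genes called ranged from 1 to 2 for mXTX301 and 2 to 3 for the unmasked control at day 4, and from 6 to 7 and 4 to 6 at day 7. It was 0 to 0 between the drugs at both days and between the days in vehicle, 0 to 1 between the days in each drug group, 0 to 5 for the change of the mXTX301 effect, 0 to 4 for that of the unmasked control, and 0 to 0 for genes following the skin level. The count between the days was 1 without mXTX301 day 4 replicate 3 and 1 without unmasked day 7 replicate 1.

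With no low-count filter the changes of effect numbered 2 for mXTX301 and 1 for the unmasked control. Without the skin-rich libraries the unmasked day 7 count was 3, its change of effect 0, and 5 gene pairs passed. With only the compared groups in the fit the counts were 3 for mXTX301 at day 4, 1 between the days in mXTX301, and 2 and 0 for the changes of effect. DESeq2 gave 4 for the unmasked control at day 4, 1 between the days in vehicle, 1 in mXTX301 and 4 for the change of the unmasked effect. limma on the deposited log2 values gave changes of 3 and 1. Settings chosen after seeing the data were the adipocyte level as a covariate, with changes of 0 and 0, and leaving out the libraries numbered 5 of vehicle day 4 and mXTX301 day 7 together. That gave 3 and 4 at day 4, 1 between the days in vehicle, 1 in the unmasked group, and changes of 0 and 5. The cause was not tested.

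Over all genes, several totals of calls moved by over 1.5 times. Without the skin-rich libraries the comparison between the days in the unmasked group went from 4009 to 0, the change of the unmasked effect from 798 to 20, that of mXTX301 from 772 to 1478, the unmasked control at day 4 from 3465 to 1820 and at day 7 from 6973 to 4370. With the adipocyte level in the fit the changes of effect held 87 for mXTX301 and 99 for the unmasked control, and the comparison between the days in mXTX301 went from 2242 to 749. By DESeq2 the changes held 1486 and 1762, with only the compared groups 514 and 287, and with no low-count filter that of the unmasked control held 473. Without the libraries numbered 5 of vehicle day 4 and mXTX301 day 7 it held 3098. The vehicle comparison between the days went from 6 to between 0 and 625, the highest by DESeq2. With 1 library left out, it held 0 to 1075 (the highest without vehicle day 7 replicate 5), the mXTX301 change 200 to 1225 (lowest without mXTX301 day 7 replicate 5, highest without vehicle day 7 replicate 3), the unmasked change 132 to 3025 (lowest without unmasked day 7 replicate 2, highest without vehicle day 4 replicate 5), and the comparison between the days in mXTX301 533 to 3420 (without mXTX301 day 4 replicate 1 and 3). Between the drugs at day 7, 5 genes were called without mXTX301 day 7 replicate 3.

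Replicate numbers are shared between groups, but same-numbered libraries deviated together with a mean r of 0.0436 (range -0.65 to 0.764), and 9 of 30 had a same-numbered best partner. The samples were therefore not treated as paired. With a replicate block the counts were 2 for mXTX301 at day 4, 1 between the days in mXTX301 and 4 for the change of the unmasked effect.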
